A study of Homo sapiens with 6 samples.

Results

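The 44 genes described here build and control the contacts of epithelial cells. They comprise genes of tight junctions, adherens junctions and desmosomes, keratins, regulators of the epithelial and mesenchymal states, mesenchymal markers, integrins, actins and actinins. They were chosen by name with earlier results of these data known, though with no threshold on the difference between the groups. A named probe was found for 42 of them, and TJP3 and F11R were not analysed here. A gene was tested where the mean log2 signal of a probe over the 6 arrays was at least 7, and its brightest such probe stood for it. This held for 33 of the 44 genes, among 10503 named genes tested in all. The other 9 genes with a probe lay under that minimum.

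LNCaP is an androgen-sensitive human cell line established from prostate cancer that had spread to a lymph node. The cells were grown in RPMI medium with fetal bovine serum and were transfected for 24 h with a precursor at 30 nM, either pre-miR-331-3p, which cells process to the mature microRNA, or the negative control pre-miR-NC. Total RNA was read on 6 Illumina beadchip arrays, 3 of each labelled group, here called the miR-331-3p-labelled and the miR-NC-labelled arrays, with the letters A, B and C in each group. All arrays come from a single cell line, and nothing in the labels says that the arrays of a group were separate cultures, so the p-values measure only the spread between these arrays, which may be technical.

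Epithelial cells are held together by tight junctions, which seal the space between cells, by adherens junctions, in which cadherins are linked to actin through catenins, and by desmosomes, which are anchored to keratin filaments. Integrins attach the cell to the matrix below. When epithelial cells take on mesenchymal features, they typically lose E-cadherin and gain vimentin, N-cadherin and fibronectin, under repressors of the ZEB and SNAI families, and prostate luminal cells are known for keratins 8 and 18.

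The microRNA whose precursor was transfected is shown because its seed, the stretch that pairs with target transcripts, defines the treatment. The mature sequence from RefSeq lies on the plus strand of chromosome 12 (GRCh38.p14, chr12:95308480-95308500), with the seed at bases 2 to 8 in capitals. No other of the 2370 mature names in the RefSeq table has this seed.
hsa-miR-331-3p: gCCCCUGGgccuauccuagaa

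The values are log2 signals as the authors normalised them, and the median of every array was 6.872. The array labelled miR-331-3p C stood apart, with a mean correlation of 0.9896 with the other arrays of its group, against 0.9923 to 0.9954 for the other 5 arrays. Arrays are named by their labels throughout, because the direction under these labels is opposite to the one the study gives for its listed genes. If the labels of the groups were exchanged, every direction given here would turn. Of the luminal prostate markers, 8 of 8 with a probe reached the minimum, with mean log2 signals from 8.27 to 13.1. KLK2 and TMPRSS2, which are androgen-regulated serine proteases, were higher in the miR-331-3p-labelled arrays, by log2 differences of 0.33 (adjusted p = 0.015 from limma) and 0.53 (adjusted p = 0.0023 from limma). The other 6 did not pass. KLK3, a further androgen-regulated protease of this family, had -0.23 and FOLH1 0.23, and HOXB13, STEAP2, ACP3 and SLC45A3 lay between -0.01 and 0.06. Of the basal prostate, fibroblast, smooth muscle, endothelial and leukocyte markers, 2 of each list reached the minimum. Within each of these 5 lists the median signal of an array lay between 6.74 and 6.94. The brightest gene of each list had a mean from 7.3 to 8.33, among them ACTA2 at 8.33, VWF at 8.22 and CD68 at 8.03.

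Of the 33 genes tested, 5 were higher and 2 were lower in the miR-331-3p-labelled arrays at an adjusted p of 0.05 from limma, with Benjamini-Hochberg adjustment over all probes tested. The genes that were higher were JUP, VIM, CLDN8, KRT19 and ITGB1, and those that were lower were TJP1 and CTNNB1. VIM therefore did not move alone. The shares were 15.2% higher and 6.06% lower, against 5.16% higher and 4.02% lower of all 10503 genes tested. Because the genes were chosen with earlier results of these data known, these shares are a description only. JUP and VIM are on the list of genes that the study itself selected from these arrays, so their direction is not independent evidence. The labelled groups did not overlap, with every miR-331-3p-labelled array higher, for 10 of the 33 genes, against 15.0% of all genes, and with every such array lower for 3 of them, against 13.8%. The median log2 difference of the 33 genes was 0.078, against 0.00437 over all genes, and the median size without regard to sign was 0.107 against 0.103. That median moved to 0.047 without miR-331-3p replicate A and to 0.046 without replicate B. Without miR-331-3p replicate C, the array that stood apart, the same 7 genes passed. The genes higher numbered 3 without miR-331-3p replicate B and 3 without miR-NC replicate A, B or C. After adjustment of the methods' t-test (equal variances, on the same values), 0 of the 33 genes were higher, against 0.838% of all genes, and 1 was lower, against 0.333%. At its unadjusted threshold of 0.05 that test found 8 higher and 2 lower, and limma 9 and 2. The share of all genes at an unadjusted p of 0.05 was not counted, so unadjusted counts here and below have no such comparison.

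**Figure D1:**
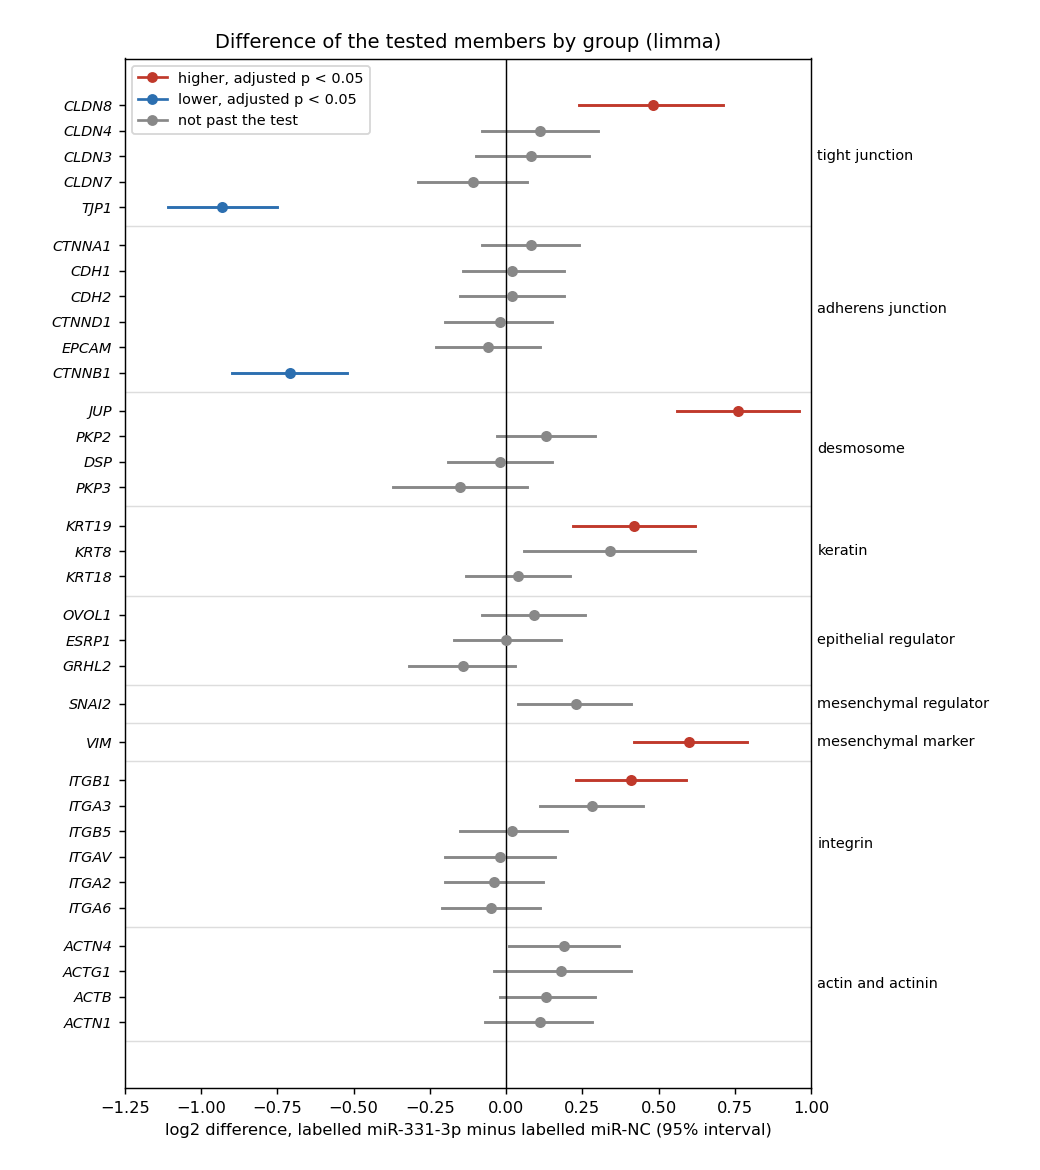
Log2 difference between the miR-331-3p-labelled arrays and the miR-NC-labelled arrays (horizontal axis) for the 33 genes tested, sorted within their groups, with 95% intervals from limma over 3 arrays against 3. JUP, VIM, CLDN8, KRT19 and ITGB1 (red) lie above 0 and TJP1 and CTNNB1 (blue) below it, and the other 26 genes (grey) did not pass the test.

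Tight junction genes were called in both directions. The cytoplasmic scaffold TJP1 was lower and the transmembrane protein CLDN8 was higher. TJP1 encodes ZO-1, which ties claudins and occludin to actin. Its log2 signals were 9.79, 9.92 and 9.90 in miR-331-3p-labelled arrays A, B and C, and 10.83, 10.67 and 10.90 in the miR-NC-labelled arrays. All 3 miR-331-3p-labelled arrays thus lay below all 3 of the other group, by more than the spread within either group. The means were 9.87 ± 0.072 (SD, n = 3) and 10.80 ± 0.12 (SD, n = 3), which differ on the log2 scale by -0.93 (95% interval -1.11 to -0.75, adjusted p = 8.4e-05 from limma), or 1.90 fold. The other tested probe of TJP1 gave 9.10, 8.98 and 8.94 against 9.79, 9.70 and 9.84, a log2 difference of -0.77 (adjusted p = 0.00017 from limma). TJP1 was the only one of the 33 genes to pass the methods' t-test after adjustment, at 0.044 (0.041 for its other probe), and it passed with every array left out in turn.

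CLDN8 encodes a claudin, the family of membrane proteins that form the paracellular seal. The gene had log2 signals of 8.72, 8.73 and 8.43 in the miR-331-3p-labelled arrays and 8.0, 8.31 and 8.15 in the miR-NC-labelled arrays. The groups did not overlap, but miR-331-3p C and miR-NC B lay close to each other. The log2 difference was 0.48 (95% interval 0.24 to 0.71, adjusted p = 0.019 from limma), and the dimmer probe of CLDN8 had 0.16 (adjusted p = 0.31 from limma) with overlapping groups. The call was lost with the methods' t-test (adjusted p = 0.21), without miR-331-3p replicate A (0.43, adjusted p = 0.053) or B (0.42, adjusted p = 0.082), and without miR-NC replicate A (0.40, adjusted p = 0.083) or C (0.48, adjusted p = 0.075). The remaining claudins did not pass. CLDN7 had a log2 difference of -0.11 (95% interval -0.29 to 0.07), CLDN3 of 0.08 (-0.10 to 0.27) and CLDN4 of 0.11 (-0.08 to 0.30). These intervals do not show that the claudins were equal in the groups. OCLN, which encodes occludin, had a mean log2 signal of 6.85 and was not tested.

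In the adherens junction group, β-catenin was lower while the cadherins it binds did not pass the test. CTNNB1 encodes β-catenin, which links cadherins to α-catenin and also acts as the transcriptional co-activator of WNT signaling. Its log2 signals were 9.28, 9.31 and 9.03 in miR-331-3p-labelled arrays A, B and C and 9.95, 9.93 and 9.87 in the miR-NC-labelled arrays. Every miR-331-3p-labelled array lay below every miR-NC-labelled array, with array C the lowest. The means were 9.21 ± 0.15 (SD, n = 3) and 9.92 ± 0.041 (SD, n = 3), which differ on the log2 scale by -0.71 (95% interval -0.90 to -0.52, adjusted p = 0.00064 from limma), or 1.63 fold. The other tested probe gave 9.31, 9.35 and 8.94 against 9.71, 9.82 and 9.85, a log2 difference of -0.59 (adjusted p = 0.0070 from limma). Further probes of CTNNB1 lay under the minimum. By the methods' t-test the brightest probe had adjusted p = 0.068, and no array left out ended its call by limma.

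CDH1 encodes E-cadherin, the defining adhesion receptor of epithelial cells. E-cadherin signals on the log2 scale were 12.30, 12.38 and 12.32 in the miR-331-3p-labelled arrays and 12.24, 12.42 and 12.26 in the miR-NC-labelled arrays. The groups overlapped throughout, and the log2 difference was 0.02 (95% interval -0.14 to 0.19). CDH2, which encodes N-cadherin, gave 7.05, 6.97 and 7.06 against 7.02, 7.09 and 6.91, a log2 difference of 0.02 (95% interval -0.15 to 0.19). Its mean of 7.02 lay just above the minimum, as did ITGA2 at 7.02 and ITGA6 at 7.04. Also dim were OVOL1 at 7.1, PKP2 at 7.11, CTNND1 at 7.12, CLDN4 at 7.2 and ESRP1 at 7.35. CD44 and FN1, at 6.95 each, lay just below the minimum. Variance stabilisation compresses such low signals, so the differences of dim probes may be understated. CTNNA1, which encodes the α-catenin that binds actin, had 0.08 (-0.08 to 0.24), and CTNND1, the p120 catenin that holds cadherins at the membrane, had -0.02 (-0.20 to 0.15). EPCAM, an epithelial surface glycoprotein, had -0.06 (-0.23 to 0.11). Of the 6 adherens junction genes, limma called 0 higher, also at an unadjusted p of 0.05, and the methods' t-test likewise found 0 at its unadjusted threshold.

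Among desmosome genes, JUP was higher and the other 3 did not pass. JUP encodes plakoglobin (γ-catenin), the close relative of β-catenin that sits in both desmosomes and adherens junctions. Its log2 signals were 11.74, 11.61 and 11.90 in miR-331-3p-labelled arrays A, B and C and 11.05, 10.88 and 11.05 in the miR-NC-labelled arrays. The lowest miR-331-3p-labelled array lay well above the highest of the other group. The means were 11.75 ± 0.14 (SD, n = 3) and 10.99 ± 0.098 (SD, n = 3), which differ on the log2 scale by 0.76 (95% interval 0.56 to 0.96, adjusted p = 0.00054 from limma), or 1.69 fold. JUP and CTNNB1 thus had called differences of opposite sign. Of the other probes of JUP, one passed at 0.44 (9.01, 8.96 and 8.62 against 8.43, 8.44 and 8.39, adjusted p = 0.022 from limma), and the dimmest had 0.17 (adjusted p = 0.42 from limma) with overlapping groups. The call at 0.44 was lost with no minimum signal (adjusted p = 0.051), with the methods' t-test (adjusted p = 0.21), without miR-331-3p replicate A (0.37, adjusted p = 0.061) or B (0.40, adjusted p = 0.090), and without miR-NC replicate A (0.45, adjusted p = 0.071), B (0.45, adjusted p = 0.077) or C (0.43, adjusted p = 0.089). The mean of all probes of JUP gave 0.45 and passed (adjusted p = 0.0030). By the methods' t-test the brightest probe missed the threshold, at adjusted p = 0.072. DSP encodes desmoplakin, which binds the desmosome to keratins, and had a log2 difference of -0.02 (95% interval -0.19 to 0.15). The plakophilins PKP2 and PKP3, which cluster desmosomal cadherins, had 0.13 (-0.03 to 0.29) and -0.15 (-0.37 to 0.07).

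**Figure D2:**
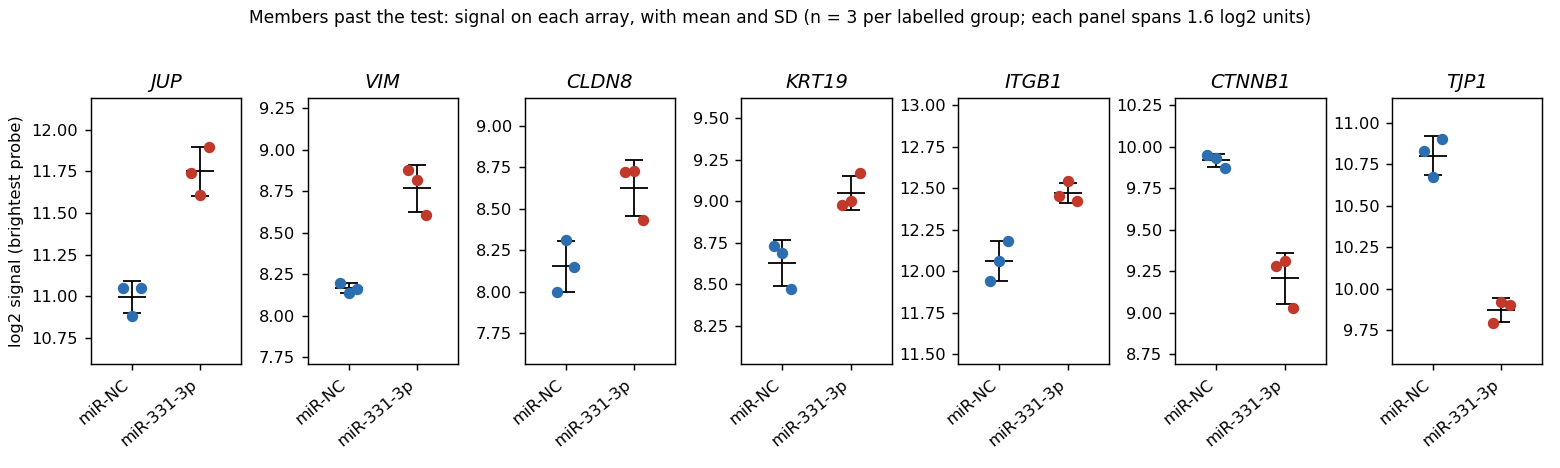
Log2 signal of the brightest probe on each array (points) for the 7 genes that passed the test, with the mean and SD of the 3 arrays of each labelled group. The axes of the panels differ in position but not in span. In every panel the 3 arrays of the red group lie apart from the 3 of the blue group, above it for JUP, VIM, CLDN8, KRT19 and ITGB1 and below it for CTNNB1 and TJP1.

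Stretches of promoter are shown for JUP and TJP1, which had called differences of opposite sign, and for DSP and CLDN7, which did not pass, because they hold the letters that ZEB and SNAI repressors are known to bind. The motif searched was CAGGTG, which reads CACCTG on the other strand, on both strands. Windows of RefSeq (GRCh38.p14) ran from 250 bases before to 50 after a gene's start, and 26 of the 44 genes had at least 1 window. The motif was in 13 of the 52 windows of these genes, against 20.6% of all 35116 windows. By gene, 11 of the 26 held it in at least 1 window. Of the 5 called genes with a window, JUP and TJP1 held it, each in some of its windows but not all, and VIM, CTNNB1 and ITGB1 did not. CDH1, CLDN8 and KRT19 had no window and were not searched. A gene with several windows can hold it more easily, and no share per gene over the whole series was counted. The stretches of 60 bases lie at chr17:41785991-41786050 on the minus strand for JUP, chr15:29969098-29969157 on the minus strand for TJP1, chr6:7541473-7541532 on the plus strand for DSP and chr17:7262613-7262672 on the minus strand for CLDN7, with the motif in capitals. A match of letters is no measured site of binding.
JUP: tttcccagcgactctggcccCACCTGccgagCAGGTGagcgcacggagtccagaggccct
TJP1: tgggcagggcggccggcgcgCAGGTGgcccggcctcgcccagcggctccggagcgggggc
DSP: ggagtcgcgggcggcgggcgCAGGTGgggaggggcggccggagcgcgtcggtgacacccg
CLDN7: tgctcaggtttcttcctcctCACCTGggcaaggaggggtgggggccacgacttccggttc

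Of the keratins, KRT19 was higher, whereas KRT8 and KRT18, the pair of luminal epithelium, did not pass. KRT19 encodes the smallest of the keratins of simple epithelia. On the log2 scale it had signals of 8.98, 9.0 and 9.17 in the miR-331-3p-labelled arrays and 8.73, 8.69 and 8.47 in the miR-NC-labelled arrays. The groups did not overlap, with array C the highest of its group and the lowest of the other. The log2 difference was 0.42 (95% interval 0.22 to 0.62, adjusted p = 0.018 from limma). This call was lost with the methods' t-test (adjusted p = 0.17), without miR-NC replicate B (0.45, adjusted p = 0.053) and without miR-NC replicate C (0.34, adjusted p = 0.085).

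KRT8 gave log2 signals of 10.44, 10.71 and 11.04 in miR-331-3p-labelled arrays A, B and C and 10.30, 10.44 and 10.41 in the miR-NC-labelled arrays. Array C was the highest, and array A of the first group lay level with array B of the other. The log2 difference was 0.34 (95% interval 0.06 to 0.62, adjusted p = 0.14 from limma), which passed only without miR-331-3p replicate A (0.49, adjusted p = 0.023) and was 0.19 (adjusted p = 0.27) without replicate C. KRT18, the partner with which keratin 8 forms filaments, gave 12.77, 12.78 and 12.60 against 12.67, 12.65 and 12.70. These values overlapped, and the log2 difference was 0.04 (95% interval -0.13 to 0.21). Dimmer probes of KRT18 read 8.27, 8.11 and 7.17, and 7.90, 7.91 and 7.27, in miR-331-3p-labelled arrays A, B and C, so that array C alone was low, with log2 differences of -0.26 and -0.23 that did not pass. KRT8, KRT18 and the actins have many processed pseudogenes, and a short probe may read more than a single copy. The basal keratins KRT5 and KRT14 lay under the minimum, at means of 6.69 and 6.79.

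The epithelial regulators did not pass the test. GRHL2, a transcription factor that maintains junction genes, had a log2 difference of -0.14 (95% interval -0.32 to 0.03) with groups that did not overlap. OVOL1, a zinc finger factor that represses mesenchymal genes, had 0.09 (-0.08 to 0.26), and ESRP1, an epithelial splicing factor, had 0.00 (-0.17 to 0.18). Of these 3 genes limma called 0, and 0 had an unadjusted p under 0.05 by limma or by the methods' t-test. ESRP2, the relative of ESRP1, had a mean log2 signal of 6.79 and was not tested.

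VIM was higher, and of the mesenchymal markers VIM, FN1 and CD44 it was the single gene at the minimum signal. It encodes vimentin, the intermediate filament protein of mesenchymal cells. Its log2 signals were 8.88, 8.82 and 8.61 in miR-331-3p-labelled arrays A, B and C and 8.20, 8.14 and 8.16 in the miR-NC-labelled arrays. The miR-NC-labelled arrays lay close together, and the lowest array of the other group stood above all of them. The means were 8.77 ± 0.14 (SD, n = 3) and 8.16 ± 0.029 (SD, n = 3), which makes a log2 difference of 0.60 (SE 0.083, 95% interval 0.42 to 0.79, adjusted p = 0.0014 from limma), or 1.52 fold. The exact permutation test (two-sided) gave p = 0.1, the smallest that 3 arrays against 3 allow. The other probe of VIM gave 8.05, 8.19 and 8.28 against 7.62, 7.67 and 7.68, a log2 difference of 0.51 (adjusted p = 0.0029 from limma). Both probes missed the threshold with the methods' t-test, at adjusted p = 0.072 and 0.077. With each array left out in turn, the difference of the brightest probe ran from 0.55 to 0.68 and passed limma's test each time, at adjusted p up to 0.012.

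Of SNAI2, CDH2, ZEB1, ZEB2, FN1 and CD44, only SNAI2 and CDH2 reached the minimum, CDH2 barely at a mean of 7.02, and neither passed. So most of these genes could give no call beside VIM. Of 14 other mesenchymal genes tested, described below, THBS1 was higher at 0.51 (adjusted p = 0.0057 from limma) and 13 did not pass. SNAI2, the SNAI family repressor SLUG, had log2 signals of 8.20, 8.24 and 8.17 in the miR-331-3p-labelled arrays and 8.12, 7.98 and 7.83 in the miR-NC-labelled arrays. The groups did not overlap, and the log2 difference of 0.23 (95% interval 0.04 to 0.41, adjusted p = 0.14 from limma) did not pass, nor did its other probe at 0.13. ZEB1 and ZEB2, at mean log2 signals of 6.70 and 6.79, FN1, which encodes fibronectin, and CD44, a hyaluronan receptor, lay under the minimum, so no difference was read for them. N-cadherin and E-cadherin were both at 0.02, and whether the difference of VIM differed from theirs was not tested. In RNA from a whole culture, a change in the number of vimentin-expressing cells and a change in RNA per cell cannot be told apart. Of 8 fibroblast markers, only COL1A1 and PDGFRA reached the minimum, with log2 differences of -0.07 and 0.07 (adjusted p = 0.66 and 0.73 from limma), and the median of the list lay between 6.81 and 6.88 in the miR-331-3p-labelled arrays and was 6.83 in the miR-NC-labelled arrays. What part such cells have in the signal of VIM was not tested.

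Of the integrin genes, ITGB1 was higher and the other 5 tested did not pass. ITGB1 encodes integrin β1, the common partner of most matrix-binding α chains. The brightest probe gave log2 signals of 12.45, 12.54 and 12.42 in the miR-331-3p-labelled arrays and 11.94, 12.06 and 12.18 in the miR-NC-labelled arrays. The groups did not overlap, and the log2 difference was 0.41 (95% interval 0.23 to 0.59, adjusted p = 0.012 from limma). A dimmer probe of ITGB1 gave 11.01, 10.89 and 10.32 against 10.47, 10.78 and 10.81, where array C was the lowest of all 6, and its log2 difference was 0.06 (adjusted p = 0.89 from limma). The call was lost by the mean of both probes (0.23, adjusted p = 0.23), with the methods' t-test (adjusted p = 0.12), without miR-331-3p replicate B (0.37, adjusted p = 0.056), and without miR-NC replicate A (0.35, adjusted p = 0.055) or B (0.41, adjusted p = 0.054).

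The integrin α chains among the 44 genes did not pass. ITGA3, a laminin-binding chain, had a log2 difference of 0.28 (95% interval 0.11 to 0.45, adjusted p = 0.052 from limma) with groups that did not overlap. It passed with array weights (0.26, adjusted p = 0.036), cyclic loess (0.28, adjusted p = 0.049), the fit on the mean of the probes of each gene (0.28, adjusted p = 0.041), and with miR-331-3p replicate A left out (0.34, adjusted p = 0.034). ITGA2, a collagen-binding chain, had -0.04 (-0.20 to 0.12), and ITGA6, a laminin-binding chain, had -0.05 (-0.21 to 0.11), both from signals near the minimum. ITGAV, the αv chain of vitronectin receptors, had -0.02 (-0.20 to 0.16), and its partner ITGB5 had 0.02 (-0.15 to 0.20). Dimmer probes of ITGB5 ran the other way without passing. They had -0.26 (-0.45 to -0.06, adjusted p = 0.11 from limma), with groups that did not overlap, and -0.08 (adjusted p = 0.61 from limma). ITGB4, the β4 chain of hemidesmosomes, lay under the minimum at a mean of 6.87.

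No actin or actinin gene passed. ACTB and ACTG1, the cytoplasmic actins, had log2 differences of 0.13 (95% interval -0.02 to 0.29) and 0.18 (-0.04 to 0.41) at their brightest probes. ACTN1 and ACTN4, the non-muscle actinins that crosslink actin at adhesions, had 0.11 (-0.07 to 0.28) and 0.19 (0.01 to 0.37, adjusted p = 0.20 from limma). Of the 4 genes, limma called 0, with 1 higher and 0 lower at an unadjusted p of 0.05, and the methods' t-test found 1 and 0 unadjusted and 0 adjusted. Other probes of the actins ran the other way without passing. That of ACTB gave -0.41 (adjusted p = 0.068 from limma). That of ACTG1 read 11.48, 11.17 and 7.40 in miR-331-3p-labelled arrays A, B and C and 11.59, 11.66 and 11.03 in the miR-NC-labelled arrays. A single array, miR-331-3p C, was far below the other 5, and the log2 difference of -1.41 (adjusted p = 0.34 from limma) became -0.10 without it.

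More than 1 probe at the minimum was available for 14 of the genes, and for 7 of these all such probes had the same sign. For TJP1, CTNNB1 and VIM every tested probe passed. For JUP, CLDN8 and ITGB1 at least 1 probe did not, and KRT19 had a single tested probe. Over all 42 genes with a named probe, 50 probes were tested and 40 lay under the minimum.

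**Figure D3:**
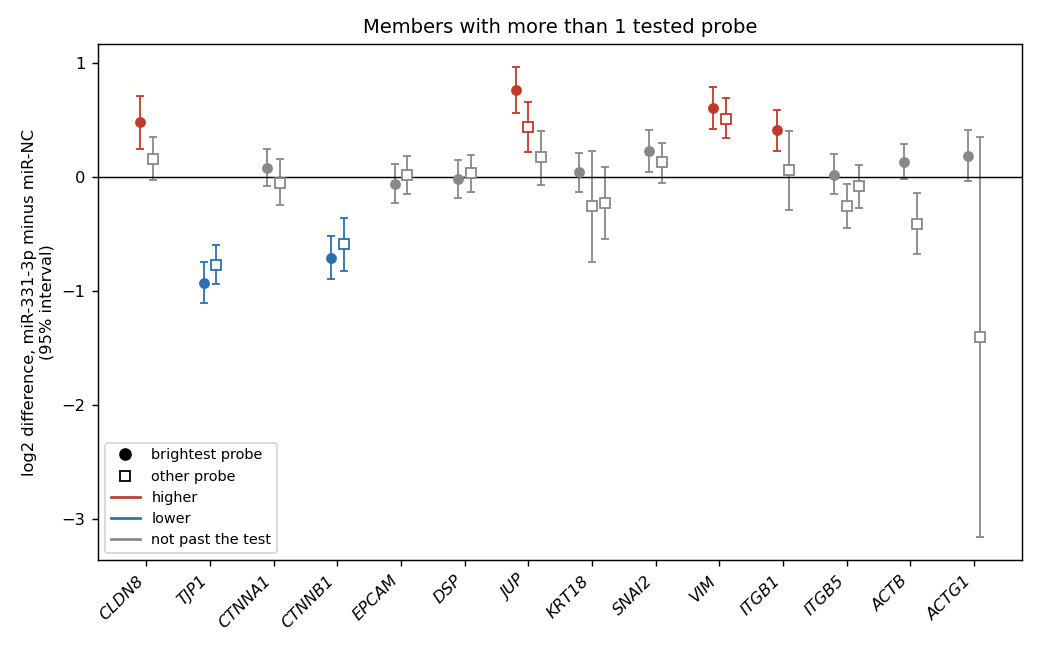
Log2 difference between the labelled groups (vertical axis, miR-331-3p minus miR-NC) for each tested probe of the 14 genes with more than 1, with 95% intervals from limma over 3 arrays against 3; the filled circle is the brightest probe. All probes of TJP1 and CTNNB1 lie below 0 and all of VIM above it, whereas the other probe of ACTG1 has an interval from -3.16 to 0.35.

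Other genes of the same structures were counted from a list of 172 that holds none of the 44. That list was drawn up with the paper and earlier results of these data known, so its shares are a description only. A named probe was found for 156, and 92 reached the minimum. Of these, 15 were higher (16.3%, against 5.16% of all genes) and 1 was lower (1.09%, against 4.02%) at an adjusted p of 0.05 from limma. LAMA1, DSC2, CD24 and SDC1 are among the 15 and are also on the study's own list from these arrays, so their direction is not independent evidence. The median log2 difference of the 92 was 0.071. After adjustment, the methods' t-test found 2 higher (SDC4 and MYL12A) and 0 lower, against 0.838% and 0.333% of all genes. At its unadjusted threshold it found 18 and 4, where limma had 24 and 5, with no share of all genes to set beside them. The count of genes higher fell to 9 without miR-NC replicate A, 8 without replicate B and 9 without replicate C, and 2 genes were lower without miR-331-3p replicate A.

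On the laminin and basement membrane list 3 of 9 tested genes were higher, against 5.16% of all genes. These 3 were LAMA1 and the syndecans SDC1 and SDC4, so LAMA1 was the only laminin chain called. The other laminin chains and the collagen tested did not pass, at log2 differences from -0.11 to 0.09. The counts of the other short lists rest on few genes each and are read against the same share. LAMA1, the laminin α1 chain, gave 9.21, 8.98 and 9.36 in the miR-331-3p-labelled arrays and 8.21, 8.56 and 8.52 in the miR-NC-labelled arrays, a log2 difference of 0.76 (adjusted p = 0.0026 from limma), and its dimmer probe passed at 0.40. The syndecans SDC1 and SDC4, cell surface heparan sulfate proteoglycans that act beside integrins, had 0.59 and 0.54. ITGA5, the α5 chain that forms the fibronectin receptor with integrin β1, was the single call among 4 other integrins tested, at 0.43 (adjusted p = 0.0070 from limma). Its log2 signals of 7.82, 7.67 and 7.85 lay above those of 7.31, 7.42 and 7.31.

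In the other junction genes the calls were again higher. CGN, which encodes cingulin, a partner of ZO-1, had a log2 difference of 0.40 (adjusted p = 0.014 from limma). The claudins CLDN12 and CLDN23 had 0.34 and 0.30, near the threshold (adjusted p = 0.047 and 0.038 from limma). With them 3 of 13 other tight junction genes tested were called. DSC2, the desmosomal cadherin desmocollin 2, had 0.66 (adjusted p = 0.0022 from limma), from 11.53, 11.42 and 11.21 against 10.87, 10.62 and 10.67, and was the 1 call among 7 other desmosome genes. A dimmer probe of DSC2 had -0.01 (adjusted p = 0.98 from limma) with overlapping groups. It read 9.18, 9.15 and 8.36 in miR-331-3p-labelled arrays A, B and C against 9.07, 8.90 and 8.76, so array C was the lowest. Of 7 other adherens junction genes limma called 0, with 1 higher at an unadjusted p of 0.05 and 0 by the methods' t-test. KRT7, a keratin of simple epithelia, had 0.32 (adjusted p = 0.039 from limma) and was the call among 4 other keratins tested. The surface glycoprotein CD24 and the membrane serine protease ST14 (matriptase) had 0.64 and 0.44, and a dimmer probe of CD24 had 0.17 (adjusted p = 0.23 from limma).

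Of 14 other mesenchymal genes tested, THBS1, which encodes the matrix protein thrombospondin 1, was higher at 0.51 (adjusted p = 0.0057 from limma). That call was 7.14% of the genes tested, against 5.16% of all genes. A further 17 of that list lay under the minimum, and 0 were lower by limma. At an unadjusted p of 0.05 limma had 3 higher and 0 lower. Among 24 genes that link adhesions to actin, MYL12A, a myosin light chain, CTTN, which encodes cortactin, and the kinase SRC were higher, at 0.40, 0.39 and 0.34. The calls of CTTN and SRC stood near the threshold, at adjusted p = 0.049 and 0.043 from limma. Dimmer probes of CTTN did not pass, at 0.19 and -0.04. The probe at -0.04 read 7.79, 7.70 and 6.91 in miR-331-3p-labelled arrays A, B and C against 7.53, 7.54 and 7.45, with array C the lowest. RDX encodes radixin, which ties membrane proteins to actin, and was lower. Radixin gave log2 signals of 9.17, 9.09 and 9.04 in miR-331-3p-labelled arrays A, B and C and 10.01, 9.74 and 9.90 in the miR-NC-labelled arrays. The groups lay far apart relative to their spread, at a log2 difference of -0.78 (95% interval -0.97 to -0.60, adjusted p = 0.00034 from limma; 0.060 by the methods' t-test).

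**Figure D4:**
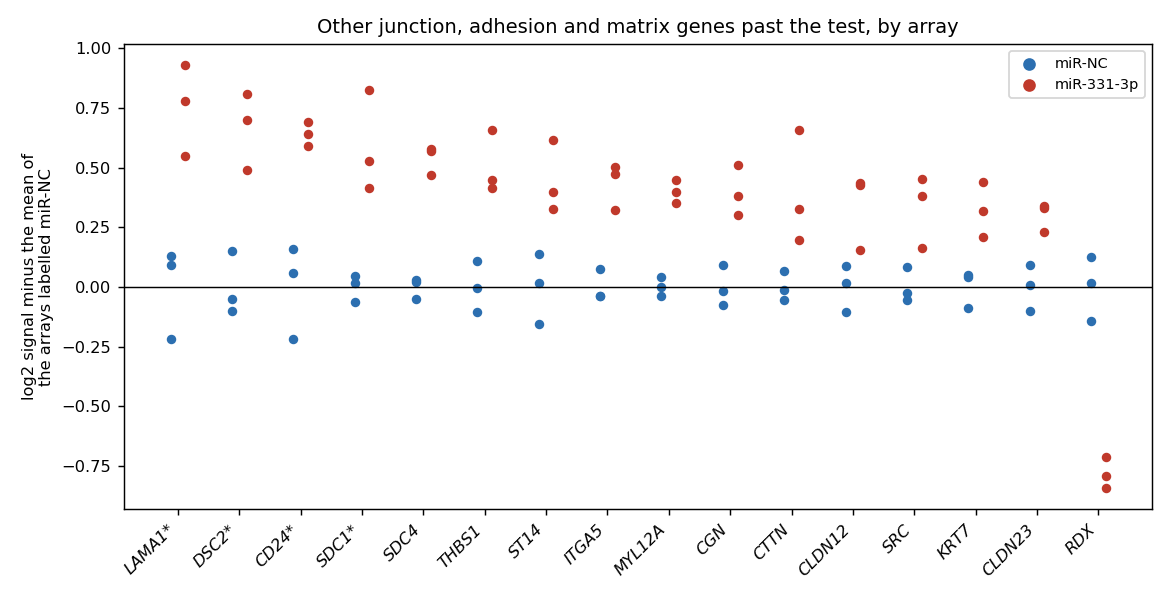
Log2 signal on each array, less the mean of the miR-NC-labelled arrays (vertical axis), for the 16 other genes of the same structures that passed the test, with 3 arrays in each group. An asterisk marks genes on the study's own list. RDX is the single gene whose miR-331-3p-labelled arrays (red) lie below the miR-NC-labelled arrays (blue).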

How the data were processed

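The values analysed were log2 signals of 48802 probes on 6 arrays. The authors had background corrected and variance stabilised the raw signals on a log2 scale and quantile normalised them before they were deposited. A table of raw signals was not used, since its 12 columns name no sample. Gene names came from the platform annotation, where 27577 probes had 1 symbol, and 27540 of these were brought up to date through the gene identifier. The 16752 probes whose mean reached 7 entered the test, which used limma 3.58.1 (lmFit and eBayes, two-sided) in R 4.3.3, with Benjamini-Hochberg adjustment over all of them and a threshold of 0.05. The script was tested on simulated data. Python 3.11.15 was used for counts and figures. All members could be named, and of the other genes those past the threshold. The members and lists were chosen with earlier results of these data known. Alternatives were another minimum, the methods' t-test, array weights, an intensity trend, a replicate block, cyclic loess, the mean of all probes and leaving out each array. Those that need the raw table or the beadchip of a sample were not run. The number of arrays limits the precision.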

Additional observations from a re-analysis of the deposited data

How the results depend on the processing

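Of 672 values of the members' probes under the alternatives, 607 kept their side of the threshold and their direction, 25 calls were lost (9 of them with the methods' t-test), 9 were gained and 31 changed sign, 0 of these at the 11 called probes. With the methods' t-test the members higher and lower numbered 0 and 1, the other genes 2 and 0, and VIM (0.60) missed the threshold at adjusted p = 0.072. The median of the members was 0.037 with no minimum signal and 0.016 by the mean of all probes, against 0.078. Without each array in turn, 3 to 6 members were higher (3 without miR-331-3p replicate B or any array labelled miR-NC) and 2 lower each time, their median ran from 0.046 to 0.10, and 8 to 13 other genes were higher and 1 to 2 lower. TJP1 passed under every alternative, and JUP, CTNNB1 and VIM under all but the t-test. The causes were not tested.

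The letters were not shown to pair the arrays: deviations from the group means correlated at -0.043 between the A arrays, 0.0174 between the B arrays and 0.224 between the C arrays, and the own letter gave the best match for C alone. With the replicate block the same 5 members were higher and the same 2 lower, VIM had 0.60 (adjusted p = 0.0016), and 14 other genes were higher.

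The members that changed sign did not pass the test. By the mean of all probes DSP moved to 0.01, KRT18 to -0.15, ITGB5 to -0.11, ACTB to -0.14 and ACTG1 to -0.61. With array weights ITGB5 moved to -0.01 and the other probe of EPCAM to -0.0047, and with cyclic loess ESRP1 to -0.0036. Without each array in turn, differences ran from -0.01 to 0.08 for CDH1, -0.03 to 0.06 for CDH2, -0.09 to 0.02 for CTNND1, -0.06 to 0.03 for DSP, -0.04 to 0.05 for ESRP1, -0.09 to 0.04 for ITGAV and -0.03 to 0.05 for ITGB5, and at other probes from -0.15 to 0.01 for CTNNA1, -0.03 to 0.04 for EPCAM, -0.01 to 0.06 for DSP, -0.47 to 0.08 for KRT18 and -0.08 to 0.27 for ITGB1. Dim probes near the minimum allow only coarse reading.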
